A study of Mus musculus with 8 samples.

Results

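The difference between 2 responses to Eif4g3 knockdown was measured in cultured lymph node stromal cells: the response of heavy polysome RNA minus the response of total RNA. It covers 19801 of the 41174 non-control probes on the array. A probe was kept if either dye was well above background on 3 or more of the arrays of total RNA and on 3 or more of those of heavy polysome RNA. They represent 13487 genes at 1 probe each, the one with the highest mean signal. On each array the Eif4g3 siRNA sample was labelled with Cy5 and its control siRNA counterpart with Cy3, so each array gives a log2 ratio of Eif4g3 siRNA over control siRNA for each gene. The difference used here is the mean log2 ratio of the 4 heavy polysome arrays minus that of the 4 total RNA arrays. A positive value means that, against control cells, a transcript stood higher in heavy polysomes than its abundance in the whole lysate would give, and a negative value the opposite.

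Eif4g3 encodes a scaffold protein of the eIF4G family. Such scaffolds sit in the eIF4F complex, where eIF4E holds the mRNA cap, eIF4A unwinds the leader and eIF4G joins both to the small ribosomal subunit through eIF3. Transcripts that initiate often carry many ribosomes and sediment deep in a sucrose gradient, in the heavy polysome fractions. mRNAs differ in how much they need eIF4F: long or structured leaders, upstream open reading frames and terminal oligopyrimidine (TOP) starts are the features best known to set that need.

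All cells were stromal cells of BALB/c lymph nodes, which in the node form the scaffold of fibroblast-like and vascular cells, grown in dishes and harvested 48 h after lipofection. The first group received 400 pmol of Eif4g3 siRNA and the second 400 pmol of a control siRNA, and 7 plates were transfected per siRNA. Cells for heavy polysome RNA were pooled before lysis and gradient fractionation, and 200 ng of RNA was labelled for either fraction. The labels do not say whether the 4 replicates of a fraction came from separate cultures, so p-values measure only the spread between these arrays, which may be technical. Since equal RNA mass was labelled, ratios are relative within a sample. The study asked, as far as known, which genes lose translation with this factor, among them Anpep, which encodes a surface aminopeptidase, and Deaf1, a regulator of peripheral tissue antigens.

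Agilent 2-colour arrays carried no dye swap, and a dye bias equal on all 8 arrays cancels in the difference. It does not cancel in the ratio of a single fraction, where it cannot be told apart from the response to the siRNA. No spot was saturated, and the number of arrays limits the precision. Heavy polysome array 1 stood furthest apart: its mean correlation across genes was 0.29 with its own fraction and 0.18 with the other. On it 37.6% of probes were well above background in Cy3, against 45.5% to 57.5% on the other arrays. Heavy polysome array 3 and total RNA array 4 were also low, at 0.32 and 0.33 with their own fractions. The remaining arrays were at 0.41 to 0.57. The 3 arrays of lowest correlation all lay at position 1 of their slides. Heavy polysome arrays 2 and 4 correlated at 0.89. Heavy polysome and total RNA arrays lay on different slides, so a slide effect cannot be told apart from a difference between the fractions. Each fraction had 2 arrays at position 1 of a slide (total RNA 2 and 4, heavy polysome 1 and 3) and 2 at position 3 (total RNA 1 and 3, heavy polysome 2 and 4). For some genes and lists, values within each position are given beside the pooled ones. Where they are absent, the positions may still differ. Of 12 stromal marker genes 11 were measured, against 4 of 13 for endothelial cells, 8 of 18 for macrophages, 3 of 13 for lymphocytes and 4 of 8 for epithelial cells. Their median differences were -0.16, -0.08, 0.01, 0.03 and 0.06. In these bulk samples, fewer cells of a type and less RNA per cell cannot be told apart.

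Across the 13487 genes, no gene passed the test of the difference between the fractions. In limma with Benjamini-Hochberg adjustment at a threshold of 0.05, 0 genes were higher and 0 lower (0% called), and the lowest adjusted p was 0.838. At an unadjusted p under 0.05 stood 704 genes (5.22%), 543 of them higher (4.03%) and 161 lower (1.19%). The same count of 0 came from probes of the rule tested on their own, within position 1, within position 3 and without heavy polysome array 1. When arrays were weighted by their quality, 7 genes were higher and 1 lower, with a weight of 7.76 for heavy polysome array 4 and 0.24 for array 3. In the unweighted fit 636 genes (4.72%) had a ratio apart from 0 in total RNA, 237 up (1.76%) and 399 down (2.96%). In heavy polysome RNA 1293 (9.59%) did, 717 up (5.32%) and 576 down (4.27%). Of these, 391 genes passed in both fractions, and 0 passed in both with opposite signs. These tests of 1 fraction include any dye bias of a probe, and a bias shared by the fractions has the same sign in both. The words fell and rose below refer to this ratio.

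The differences were small and leaned upward. Their median was 0.07 on the log2 scale, the quartiles were -0.07 and 0.22, and 62.9% of genes were above 0. Within position 1 the median was 0.10 and within position 3 it was 0.04. Ratios were normalised within each array, so this lean is relative and is no measure of a general change in loading. It also depended on the probes kept: with no filter on dim probes the median was 0.007. Only 7 genes differed by at least 1, that is 2-fold, either way. The median half-width of the 95% interval was 0.42. These intervals are not adjusted for the number of genes tested, so a difference beyond that width need not pass. Aph1a, at 0.82, had a limma adjusted p of 0.838. For 12303 genes (91.2%) the interval lay wholly between -1 and 1, and for 6632 (49.2%) within 1.5-fold either way.

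**Figure D1:**
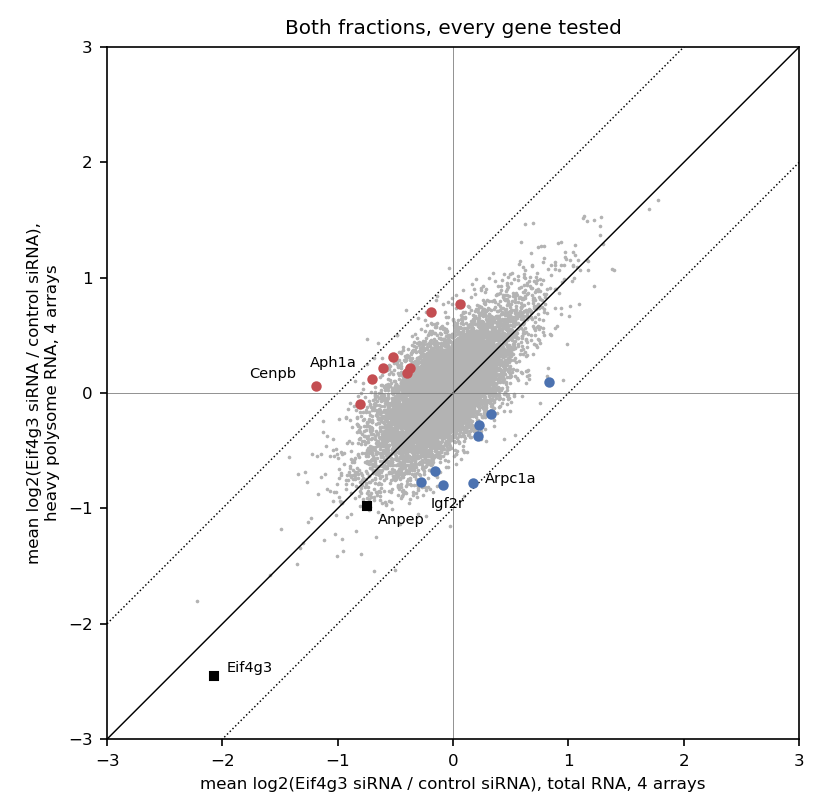
Mean log2 ratio of Eif4g3 siRNA over control siRNA in total RNA (horizontal) and heavy polysome RNA (vertical, 4 arrays each) for the 13487 genes tested, grey. The solid line marks equal response, the dotted lines a difference of 1, red and blue points are the 17 genes of smallest p described in the text, and black squares are Eif4g3 and Anpep, whose differences are -0.39 and -0.23.

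The siRNA target checks the labels. The log2 ratio of Eif4g3 (probe on mm8 chromosome 4, 137478284 to 137478343) was -2.48, -1.81, -1.94 and -2.05 in total RNA (arrays 1 to 4, the order used throughout), against -3.16, -2.24, -2.43 and -2.0 in heavy polysomes. The transcript was below control on all 8 arrays, and the ranges of the fractions overlapped. The difference was -0.39 (95% interval -0.94 to 0.17, unadjusted p = 0.153, adjusted p = 0.838), -0.87 within position 1, 0.09 within position 3 and -0.15 without heavy polysome array 1. A second probe of Eif4g3 gave -0.12.

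A set of 20 genes was taken, the 10 of smallest unadjusted p in each direction among those whose heavy polysome arrays all lay on one side of their total RNA arrays, as 330 genes did upward (2.45%) and 167 downward (1.24%). Of the 20, 17 are described here. None passed the adjusted threshold, so their values are given as measurements and not as changes in loading.

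In the first set, with heavy polysome above total RNA, most transcripts were low in total RNA of Eif4g3 siRNA cells and close to control in heavy polysomes. Aph1a, which encodes a subunit of the gamma-secretase protease (mm8 chromosome 3, 95982361 to 95982420), had ratios of -0.79, -0.74, -0.66 and -0.61 in total RNA, against 0.26, -0.04, 0.24 and 0.01 in heavy polysomes. All 4 total RNA arrays lay below all 4 heavy polysome arrays. The transcript fell in total RNA (-0.70 ± 0.08, SD, n = 4; limma adjusted p = 0.00713) and stood at 0.12 ± 0.15 (n = 4) in heavy polysomes, and the difference was 0.82 (0.52 to 1.12, unadjusted p = 1.05e-04), the smallest p of all genes. A second probe of Aph1a gave 0.56.

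St3gal3, a sialyltransferase gene, had total RNA ratios of -0.47, -0.63, -0.38 and -0.95 and heavy polysome ratios of 0.07, 0.17, 0.22 and 0.40. The fractions did not overlap, and the difference was 0.82 (0.47 to 1.18). Cenpb, whose product binds a centromeric satellite motif, had -1.12, -1.07, -0.87 and -1.71 in total RNA, against 0.85, -0.14, -0.31 and -0.17 in heavy polysomes. Its difference of 1.25 (0.64 to 1.86) was the largest of the named genes, and it was 0.98 without heavy polysome array 1, the only array on which the heavy polysome ratio exceeded 0. Basp1, a membrane-bound growth cone gene, shared this form, with -0.80 ± 0.20 in total RNA and -0.09 ± 0.24 in heavy polysomes (n = 4 each). It fell in total RNA (limma adjusted p = 0.00935).

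Nrp1, a co-receptor for semaphorins and vascular growth factors, had -0.36, -0.24, -0.27 and -0.64 in total RNA, against 0.26, 0.17, 0.32 and 0.14 in heavy polysomes. It thus lay below control on every total RNA array and above control on every heavy polysome array, a difference of 0.60 (0.29 to 0.91), and neither fraction passed its own test (adjusted p = 0.0568 and 0.186). Dnajc14, a co-chaperone gene, differed by 0.83 (0.38 to 1.29), with a total RNA range of -1.08 to -0.21, and its other probe gave 0.02. The unstudied locus 2410002F23Rik differed by 0.58 (0.27 to 0.89).

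Atf2 and Fbxw2 had another form. Atf2, a basic leucine zipper transcription factor gene, had 0.00, -0.05, 0.09 and 0.22 in total RNA, against 0.75, 0.55, 1.19 and 0.60 in heavy polysomes, so its total RNA stayed near control and its heavy polysome ratio was above 0.5 on every array. It rose in heavy polysomes (0.77 ± 0.29, n = 4, limma adjusted p = 0.00553), and the difference was 0.71 (0.34 to 1.08). Its other 2 probes gave 0.25 and 0.12. Fbxw2, a substrate adaptor of a ubiquitin ligase, had -0.10, -0.13, -0.66 and 0.11 in total RNA, against 0.78, 0.39, 1.13 and 0.50 in heavy polysomes, a difference of 0.89 (0.42 to 1.36).

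The second set, with heavy polysome below total RNA, mostly sat near control in total RNA. Arpc1a, a subunit gene of the Arp2/3 actin nucleation complex (mm8 chromosome 5, 145360611 to 145361911), had 0.11, 0.32, 0.36 and -0.12 in total RNA, against -0.72, -0.52, -1.30 and -0.58 in heavy polysomes. It fell in heavy polysomes (-0.78 ± 0.36, n = 4, limma adjusted p = 0.00953) and stood at 0.17 ± 0.22 in total RNA, and the difference was -0.95 (-1.39 to -0.51, unadjusted p = 6.79e-04).

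Both insulin-like growth factor receptor genes were in this set. Igf2r, the receptor that carries lysosomal enzymes and clears IGF2, had 0.10, -0.27, -0.22 and 0.04 in total RNA, against -1.12, -0.71, -0.68 and -0.67 in heavy polysomes, a difference of -0.71 (-1.06 to -0.35). Igf1r, the signalling receptor kinase, had 0.00, -0.29, -0.27 and -0.06 in total RNA, against -0.89, -0.55, -0.57 and -0.71 in heavy polysomes, a difference of -0.52 (-0.84 to -0.21). Both fell in heavy polysomes (adjusted p = 0.00434 and 0.00487) and neither passed in total RNA (0.699 and 0.390). The other 2 probes of Igf1r gave 0.06 and -0.27.

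Col5a3, a chain gene of the fibril-regulating collagen V, had -0.29, -0.47, -0.28 and -0.08 in total RNA, against -0.92, -0.63, -0.85 and -0.68 in heavy polysomes, a difference of -0.49 (-0.80 to -0.17). Bcor, a transcriptional corepressor gene, differed by -0.59 (-0.97 to -0.20), and Itpr3, a calcium release channel gene of the endoplasmic reticulum, by -0.50 (-0.83 to -0.17). Mtmr4, a phosphoinositide phosphatase gene of endosomes, differed by -0.51 (-0.83 to -0.20), and the probe known only by its array name NAP046391-1 by -0.74 (-1.17 to -0.32).

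Other probes of these genes agreed in sign in the first set and only in part in the second. Of the 10 other measured probes of 7 genes in the first set, 10 were positive. Of the 9 other probes of 4 genes in the second set, 4 were negative. Since 62.9% of all genes lay above 0, a positive sign was the commoner one for any gene. Over the 4792 genes with more than 1 probe, the median range of the difference between probes of a gene was 0.20. Since the 20 genes were chosen for fractions that did not overlap, their sign is fixed in any part of the arrays and is no sign of stability.

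**Figure D2:**
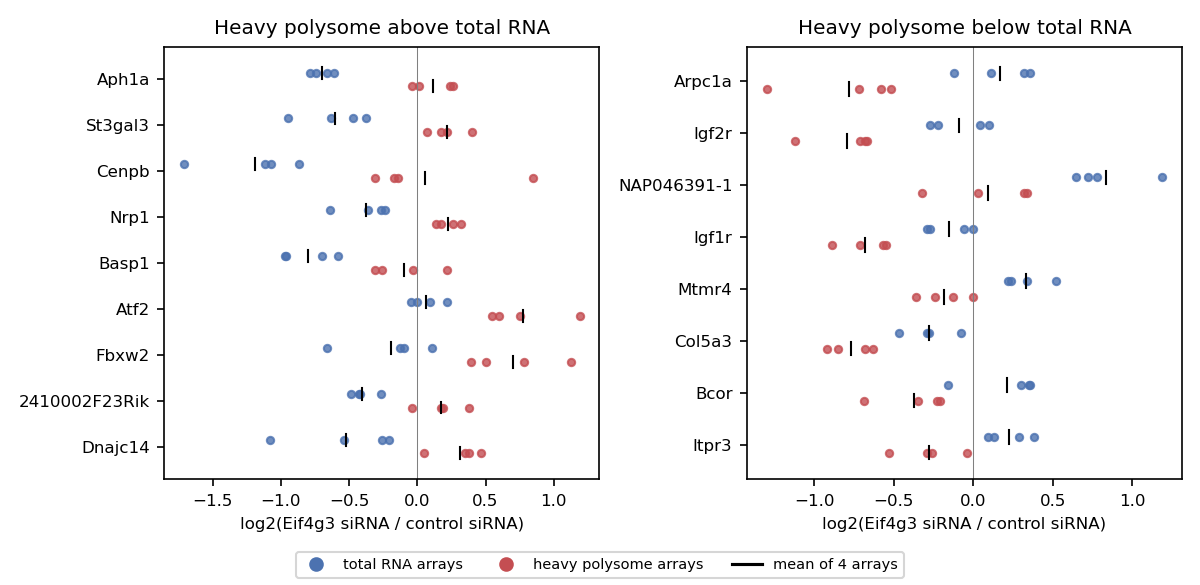
Log2 ratio of Eif4g3 siRNA over control siRNA on each of the 4 total RNA arrays (blue) and 4 heavy polysome arrays (red) for 17 of the 20 genes of smallest p whose arrays do not overlap, with the mean of each fraction as a black bar. In the left panel total RNA lies left of heavy polysomes, as for Aph1a (-0.70 against 0.12), and in the right panel it lies right, as for Arpc1a (0.17 against -0.78).

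The 7 genes past 1 either way, apart from Cenpb, were named after their values were seen, and their differences shrank without heavy polysome array 1. Saa1, an acute phase gene, had -4.70 on heavy polysome array 1 and between -0.25 and 0.26 on the other 7 arrays. Cxcl5, a neutrophil chemokine gene, had -4.16 on that array and between -0.99 and -0.15 elsewhere. Cdv3 (1.12), Capns1 (1.09), Mbd3 (1.21) and Tmem167b (1.12) also had their highest heavy polysome ratio on array 1, at 2.57, 1.25, 1.57 and 1.84. Without that array the difference was 0.06 for Saa1, -0.16 for Cxcl5, 0.63 for Cdv3 and 0.74 for Tmem167b. It was 0.81 for Capns1 and 0.85 for Mbd3, which kept more of theirs. The genes of the largest response in a fraction, also chosen after their values were seen, had differences near 0 with wide intervals. Fbn1, which encodes the microfibril protein fibrillin 1, had a difference of -0.10 (-0.68 to 0.49), Eps15, an endocytic adaptor gene, -0.11 (-0.64 to 0.42), and Dnajc1, a co-chaperone gene of the endoplasmic reticulum, 0.01 (-0.40 to 0.42).

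The starts of 4 of these transcripts are shown because the leader is where eIF4F acts. Each line gives 10 bases before the RefSeq start in lower case and the first 20 transcribed bases in capitals, 5′ to 3′, on GRCm38.p6. The windows are chr3:95893911-95893940 (plus strand), chr2:131180048-131180077 (minus strand), chr5:145083859-145083888 (plus strand) and chr17:12769687-12769716 (minus strand).
Aph1a: ccgggggtggGAATTAGATGGGAGGTGGCC
Cenpb: ccccgcgccgCGCCGCGCTCCCCGCTGGGC
Arpc1a: agcctctcccTCTAGGCCTCCCTCCTCCGT
Igf2r: ggtcacgtgaCGCTCCGGGGACGGCCACGG
In the first 50 bases G and C made up 62% in Aph1a, 86% in Cenpb, 74% in Arpc1a and 78% in Igf2r. The median over the named genes with a RefSeq window was 71% for the 9 in the first set and 71% for the 6 in the second, against 66% over all genes with a window.

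Start composition was related to the difference over all genes, weakly. A start window was found for 9681 of the genes tested (71.8%). Over 4 bins of genes, from the poorest in G and C in the first 50 bases to the richest, the median difference was 0.04, 0.08, 0.09 and 0.12, and the share at an unadjusted p under 0.05 and higher was 3.14%, 3.69%, 3.96% and 6.88%, against 4.03% of all genes. The richest bin exceeded the poorest by 0.08, by 0.12 within position 1, by 0.03 within position 3 and by 0.05 without heavy polysome array 1. Genes are not independent replicates, and no test was run on this order. Genomic span showed a different order: the share at an unadjusted p under 0.05 and lower was 0.463%, 1.16%, 1.52% and 1.85% from the bin of shortest to that of longest genes, against 1.19% of all genes. The second set had a median span of 87.3 kb, the first set 18.2 kb, and all genes 22.3 kb. The difference also varied with brightness: the median was 0.02 in the dimmest of 4 bins of genes and 0.11 in the brightest, and its part in the other orders was not tested.

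**Figure D3:**
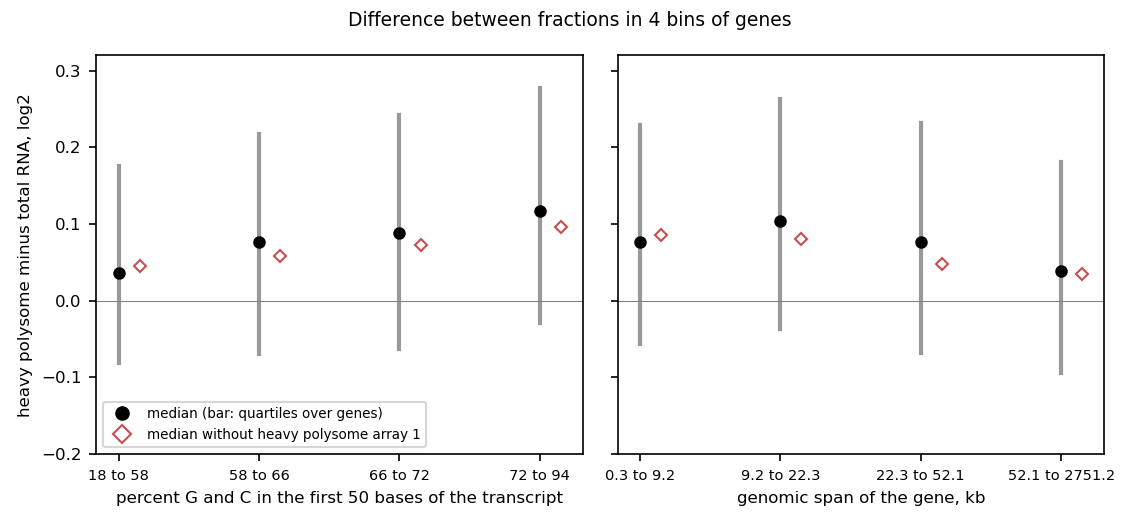
Difference heavy polysome minus total RNA (log2) in 4 bins of genes, ordered by percent G and C in the first 50 transcribed bases (left) or genomic span in kb (right). Dots are medians, bars the quartiles over genes and open diamonds the medians without heavy polysome array 1; the medians run from 0.04 to 0.12 with start composition, well within the quartiles.

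The cap-binding machinery itself showed no gene past the threshold. All 23 genes of eIF4F and its regulators were measured. Of them 14 were above 0, close to the share of 62.9% of all genes, and their median difference was 0.21 against 0.07 for all genes. The median was 0.31 within position 1, 0.02 within position 3 and 0.09 without heavy polysome array 1. Eif4g1, the main eIF4G scaffold, had -1.74, -0.25, -0.96 and 0.24 in total RNA, against 0.37, -0.37, 0.40 and -0.42 in heavy polysomes, a difference of 0.67 (-0.19 to 1.54). The arrays of both fractions were widely spread and overlapped, and a second probe gave 0.05. Without total RNA array 1 the difference was 0.32. Eif4g2, a relative that lacks the cap-binding contact, differed by 0.50 (-0.19 to 1.18), with 0.93 on heavy polysome array 1 and -0.72 to -0.05 on the other heavy polysome arrays, and by 0.19 without array 1. Eif4e, the cap-binding subunit, was at 0.23 (-0.36 to 0.82), and ran from 0.07 to 0.42 with 1 array left out, lowest without total RNA array 4 and highest without heavy polysome array 3. Eif4a1, the helicase, was the tightest: its ratios were -0.30, -0.38, -0.34 and -0.09 in total RNA, against -0.25, -0.36, -0.33 and -0.34 in heavy polysomes, a difference of -0.04 (-0.33 to 0.24) that lay between -0.08 and 0.02 with 1 array left out. Other probes gave 0.38, -0.005 and 0.55 for Eif4g2, 0.30 for Eif4e, and -0.08 and 0.13 for Eif4a1.

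Among the regulators, Paip2b, an inhibitor of poly(A)-binding protein, had the highest statistic of the list, with -0.14, -0.32, -0.08 and -0.01 in total RNA, against 0.95, 0.19, 0.03 and 0.28 in heavy polysomes (0.50, 0.05 to 0.94, unadjusted p = 0.0314). Without heavy polysome array 1 its difference was 0.30. Paip2b was the only one of the 23 at an unadjusted p under 0.05 (4.35%, against 4.03% of all genes in that direction). Eif4ebp3, one of the eIF4E-binding repressors, had the lowest statistic (-0.35, -0.71 to 0.02). Of 35 other initiation factor genes 23 were above 0 (against 62.9% of all genes), with a median of 0.12. Eif5a, which helps ribosomes through difficult peptide bonds, differed by 0.72 (0.14 to 1.30, and 0.47 without total RNA array 4), and Dhx29, a helicase for structured leaders, by -0.47 (-0.84 to -0.10). The total RNA ratios of Dhx29 were 0.08, -0.03, 0.04 and 0.31 and those of heavy polysomes -0.33, -0.15, -0.77 and -0.24, so its fractions did not overlap.

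**Figure D4:**
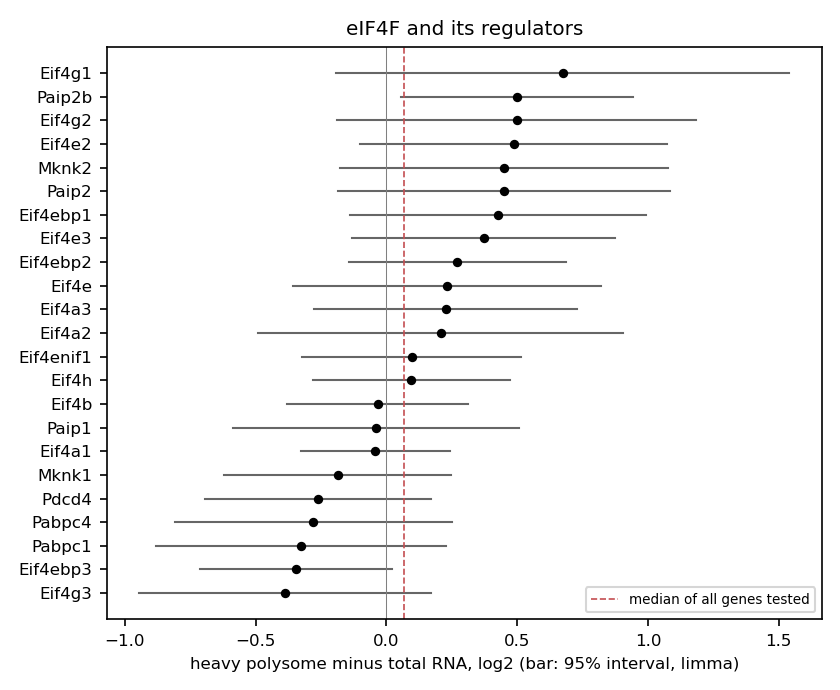
Difference heavy polysome minus total RNA (log2, points) with its 95% interval from limma (bars) for the 23 genes of eIF4F and its regulators; the dashed line is the median of all genes tested, 0.07. The intervals of 22 genes include 0, and that of Paip2b runs from 0.05 to 0.94.

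Ribosomal protein mRNAs are the model TOP mRNAs. All 83 cytosolic ribosomal protein genes were measured, with a median difference of -0.13, and 24 were above 0 (28.9%, against 62.9% of all genes). The list moved with 1 array. Its median ratio was 0.14, 0.28, 0.19 and 0.14 on total RNA arrays and -0.57, 0.31, 0.06 and 0.26 on heavy polysome arrays, so heavy polysome array 1 alone lay below 0. Without that array the median difference was 0.09 and 60 of 83 were above 0. It was -0.42 within position 1 and 0.15 within position 3. Rpl32 had the lowest statistic (-0.43, -0.88 to 0.01, and -0.28 without that array) and Rpl4 the highest (0.55, -0.13 to 1.23, and 0.31 without it or 0.30 without total RNA array 4), and 0 were at an unadjusted p under 0.05 in either direction. Among 30 other TOP genes the median was 0.03. Ipo7, a nuclear import receptor gene, was at 0.70 (0.12 to 1.27), and ran from 0.14 to 1.26 over the alternative settings, highest within position 1. Rack1, a ribosome-bound scaffold gene, was at -0.49 (-0.92 to -0.06), and -0.31 without heavy polysome array 1. The mean of all probes of a gene gave 0.33 for Ipo7 and -0.14 for Rack1. By sequence, a start of C followed by 4 bases of C or T was found in 3.01% of all RefSeq windows and in 14 of 62 ribosomal protein windows (22.6%). The 293 genes tested with that start had a median difference of 0.10 and the 9388 without it 0.08.

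Transcripts with upstream open reading frames, many of which are known to gain ribosomes on their main frame when the initiation factor eIF2 is inhibited, had the highest list median. Of 20 measured, 16 were above 0 (80%, against 62.9% of all genes), 3 were higher at an unadjusted p under 0.05 (15%, against 4.03% of all genes) and 0 lower, and the median was 0.23, 0.27 within position 1, 0.18 within position 3 and 0.12 without heavy polysome array 1. Ppp1r15a, the stress-induced regulatory subunit of the eIF2 phosphatase, had -0.86, -0.54, -0.44 and -0.63 in total RNA, against 0.91, 0.27, -0.28 and 0.34 in heavy polysomes. Its fractions did not overlap, and the difference of 0.93 (0.42 to 1.44, unadjusted p = 0.00225) was 0.90 within position 1 and 0.96 within position 3. Atf4, the central stress transcription factor gene, differed by 1.00 (0.12 to 1.88), with 1.64 on heavy polysome array 1 and -0.15 to 0.33 on the others. Without that array the difference of Atf4 was 0.62. Slc35a4 differed by 0.70 (0.02 to 1.38), with -1.13 on total RNA array 1 and -0.18 to 0.08 on the others, and by 0.43 without that array. Cebpb, a transcription factor gene whose isoforms depend on an upstream frame, had the lowest statistic (-0.42, -0.86 to 0.03).

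Immediate early genes, the transcription factors and regulators induced within minutes of a stimulus, stood above 0 most often. Of 40 measured, 34 were above 0 (85%, against 62.9% of all genes), 5 were higher at an unadjusted p under 0.05 (12.5%, against 4.03%) and 0 lower (against 1.19%). The list's median ratios were -0.09, -0.05, -0.02 and 0.05 in total RNA, against 0.25, 0.12, 0.29 and 0.08 in heavy polysomes, with no overlap. The median difference was 0.20, 0.22 within position 1, 0.11 within position 3 and 0.14 without heavy polysome array 1. Srf, the serum response transcription factor, had 0.05, 0.00, -0.13 and -0.64 in total RNA, against 1.20, 0.51, 0.19 and 0.50 in heavy polysomes, a difference of 0.78 (0.26 to 1.30). Fosl1 (0.53), Zfp36 (0.44), Trib1 (0.58, and 0.37 without total RNA array 4) and Jund (0.42) were the other 4. Plk2, a polo-like kinase gene, had the lowest statistic (-0.51, -1.21 to 0.20), with -0.25 without heavy polysome array 1 and -0.31 without total RNA array 1.

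Growth mRNAs known as sensitive to eIF4E had a median of 0.15 over 30 genes, 0.26 within position 1 and -0.02 within position 3. Bcl2l1, which encodes the survival protein BCL-XL, had 0.21, 0.46, 0.50 and 0.35 in total RNA, against 0.87, 0.58, 0.68 and 0.70 in heavy polysomes, a difference of 0.33 (0.03 to 0.63). Mmp3, the stromelysin gene, had -0.20, -0.55, -0.97 and -1.04 in total RNA, against -2.61, -0.66, -1.59 and -1.33 in heavy polysomes. Its difference of -0.86 (-1.66 to -0.05) was -0.50 without heavy polysome array 1. The 25 genes reported to carry internal ribosome entry sites had a median of 0.15, with Bag1, a chaperone cofactor gene, at 0.77 (0.18 to 1.36) and Igf1r lowest. Of 34 apoptosis regulators 25 were above 0 (against 62.9% of all genes). At an unadjusted p under 0.05, 5 were higher (14.7%, against 4.03% of all genes) and 0 lower (against 1.19%). Their median was 0.099 within position 3 and 0.192 within position 1. They included Ccng1 (0.63), Bcl2l1, Bok (0.48, and 0.28 without total RNA array 4) and Bax (0.52). Over the alternative settings Ccng1 ran from 0.09 to 1.17, highest within position 1. The list's lowest statistic was that of Trp53 (-0.41, -1.0 to 0.17), whose heavy polysome ratio was -1.43 on array 1 and -0.42 to -0.28 on the others, and whose difference was -0.14 without that array.

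Trafficking genes of the Rab, ESCRT and endocytosis group had 8 of 64 higher at an unadjusted p under 0.05 (12.5%, against 4.03% of all genes) and 1 lower (against 1.19%), and a median of 0.11. Chmp3, an ESCRT-III subunit gene, had 0.39, 0.48, 0.77 and 1.12 in total RNA, against 2.04, 1.17, 1.40 and 1.27 in heavy polysomes. It rose in both fractions (limma adjusted p = 0.0415 and 0.00174), and the difference was 0.78 (0.28 to 1.29). Eps15l1, an endocytic adaptor gene, had the lowest statistic (-0.33, -0.66 to -0.01). Sterol and fatty acid synthesis genes had a median of 0.19, but 0.05 within position 3 and 0.06 without heavy polysome array 1. Within them Insig2, a sterol-sensing retention protein gene, differed by 0.54 (0.02 to 1.05, and 0.31 without heavy polysome array 1), and Srebf1, the lipogenic transcription factor gene, by -0.34 (-0.63 to -0.06). The fractions of Srebf1 did not overlap (-0.26 to -0.04 in total RNA, -0.56 to -0.36 in heavy polysomes).

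Selenoprotein genes, whose stop codon UGA is recoded as selenocysteine, had 16 of 20 above 0 (80%, against 62.9% of all genes) and a median of 0.17, 0.15 within position 1 and 0.26 within position 3. Selenof, an endoplasmic reticulum selenoprotein gene, rose in both fractions: its ratios were 0.90, 0.67, 0.98 and 1.1 in total RNA, against 1.51, 1.04, 1.28 and 1.37 in heavy polysomes, with a difference of 0.39 (0.04 to 0.73). Long non-coding and host RNAs check the fractionation, since they carry few ribosomes. In control cells their median log2 level in heavy polysomes was 1.25 below that in total RNA (a value of -1.25), against -0.02 for all genes and -0.45 for selenoprotein genes. Their response to Eif4g3 siRNA differed between fractions by a median of 0.09 over 20 genes, with Snhg18 at 0.51 (0.13 to 0.89) and Zfas1 at -0.37 (-0.84 to 0.10, and -0.23 when either total RNA array 2 or the third heavy polysome array was left out).

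Among genes of the stromal cell itself, the median over 53 collagen and matrix genes was 0.03, against 0.07 for all genes. Within position 1 the median of this list was 0.22. At an unadjusted p under 0.05, 2 of the 53 were higher (3.77%, against 4.03% of all genes) and 3 lower (5.66%, against 1.19%). The cross-linking enzyme gene Lox, at 0.88 (0.25 to 1.51), had its highest ratio of 1.30 on heavy polysome array 1 and 0.39 to 0.43 on the other heavy polysome arrays. Over the alternative settings its difference ran from 0.23 to 1.53, highest within position 1. The 3 lower genes were all collagen chains, Col4a5 (-0.42), Col5a1 (-0.41) and Col5a3. Over 21 lymph node stromal identity genes the median was 0.03. Grem1, a BMP antagonist gene, differed by 0.45 (0.01 to 0.88) and Pdgfra, a mesenchymal growth factor receptor gene, had the lowest statistic (-0.26, -0.64 to 0.11, and -0.13 without total RNA array 1). Anpep fell in both fractions (adjusted p = 0.026 and 0.00554): its ratios were -0.63, -0.47, -0.52 and -1.38 in total RNA, against -1.11, -0.68, -1.06 and -1.05 in heavy polysomes, which overlapped. The difference was -0.23 (-0.70 to 0.25). It was -0.44 without total RNA array 4, where the fractions no longer overlapped, and -0.14 and -0.15 without total RNA arrays 2 and 3. Deaf1 differed by 0.24 (-0.31 to 0.79), with -0.71, 0.31, 0.12 and 0.36 in total RNA, against 0.27, 0.08, 0.64 and 0.03 in heavy polysomes. Its difference was -0.01 without total RNA array 1 and 0.11 without heavy polysome array 3. A second probe of Deaf1 gave 0.004.

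Interferon-stimulated genes were measured for 41 members, 16 of them above 0 (39%, against 62.9% of all genes), with a median of -0.05. The list again moved with heavy polysome array 1: its median ratio was -0.04 there and 0.51, 0.14 and 0.44 on the other heavy polysome arrays, and without that array the median difference was 0.12. It was -0.36 within position 1 and 0.21 within position 3. Tap1, the peptide transporter gene of antigen presentation, had 0.06, -0.09, -0.05 and -0.22 in total RNA, against 0.36, 0.25, 0.19 and 0.31 in heavy polysomes, without overlap (0.35, 0.07 to 0.63).

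**Figure D5:**
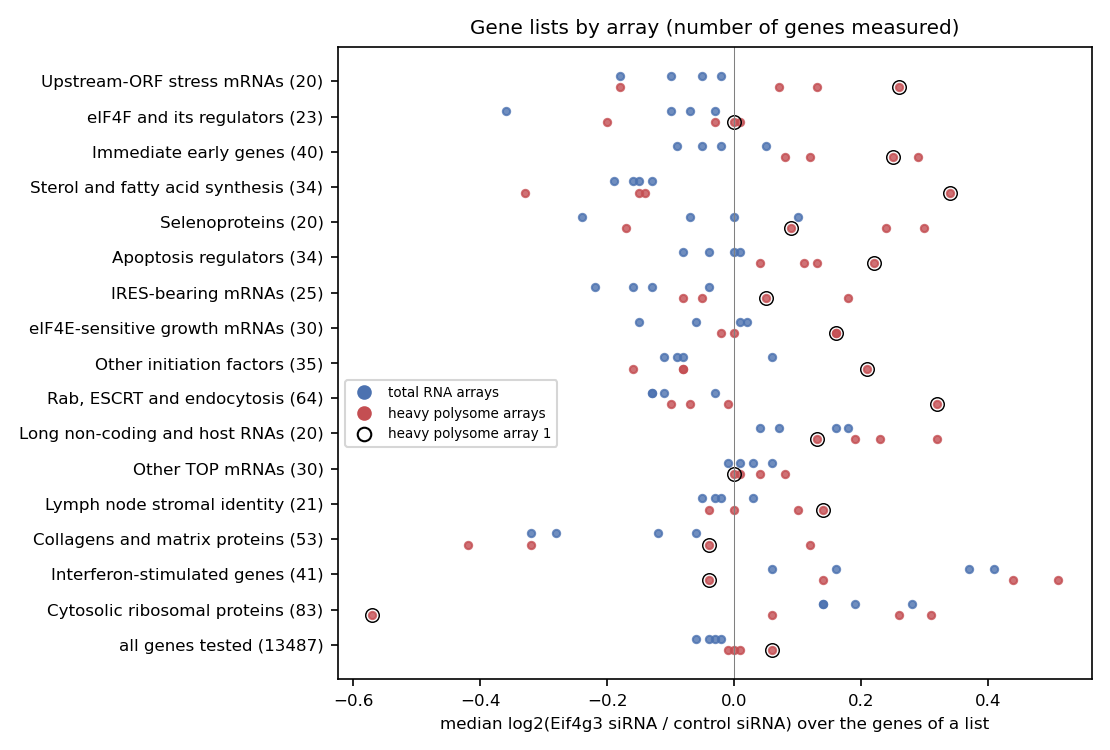
Median log2 ratio of Eif4g3 siRNA over control siRNA over the measured genes of each list, on each total RNA array (blue) and heavy polysome array (red); circled points are heavy polysome array 1. Heavy polysome array 1 lies at -0.57 for cytosolic ribosomal proteins, apart from 0.06 to 0.31 on the other heavy polysome arrays, while immediate early genes lie above total RNA on every heavy polysome array.

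The remaining lists lay between a median of -0.03 for inflammatory chemokines and cytokines and 0.17 for the unfolded protein response and endoplasmic reticulum chaperones. Aminoacyl-tRNA synthetases (-0.02), mitochondrial ribosomal proteins (0.01), oxidative phosphorylation (0.02), proteasome subunits (0.02), heat shock proteins (0.02), ATF4 targets (0.03) and mRNA decay genes (0.04) were at or below the median of all genes. Glycolysis and hypoxia (0.06), cell cycle and mitosis (0.06), matrix proteases and inhibitors (0.07), replication-dependent histones (0.11), ribosome biogenesis (0.11), the mTOR pathway (0.11), splicing factors and hnRNP proteins (0.12) and solute carriers (0.15) made up the rest. No gene of any list passed the adjusted threshold in the difference, against 0% of all genes.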

How the data were processed

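The 8 Agilent whole mouse genome 2-colour arrays were grouped by their labels into the fractions, with 4 in each. Spot signals and local backgrounds are given as intensity per the file headers, made with Agilent Feature Extraction 10.7.3.1 on 7 arrays and 10.5.1.1 on total RNA array 2. The deposited tables also give processed signals and a log10 ratio of Cy5 over Cy3, and the deposited series matrix holds log2 ratios by the authors. The aligner and genome build do not apply, and probe positions are on mm8 per the file headers, with no annotation of that build used here.

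Mean signals were corrected for median background with normexp (offset 50), log2 ratios were normalised within arrays by loess (span 0.3), and flagged spots were left out. Spots of a probe were averaged. RefSeq records of GRCm38.p6 gave symbols for 80.3% of probes. limma 3.58.1 in R 4.3.3 (version 1.17.8 of data.table) fitted 1 coefficient per fraction, and the difference was tested two-sided with Benjamini-Hochberg adjustment over 13487 genes, with 6 residual degrees of freedom before moderation. The fit was tested on simulated data. Control-cell levels came from Cy3 after Aquantile normalisation. Plots used Python 3.11.15 and matplotlib 3.10.9.

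The genes and lists were chosen with earlier results of these data known, so none is independent support. Named genes were those passing (0), then the 10 of smallest p per direction without overlap, 7 genes of the eIF4F and Anpep axis, and the members of highest and lowest statistic, or at an unadjusted p under 0.05, of each list described, and a few of them are not reported here. Lists are given by counts and medians with no test. Alternatives covered background, normalisation, filters, probe choice, slide, weights and left-out arrays. Slide was a random block, which cannot separate the fractions from their slides. Slide position, the 3 arrays of lowest correlation and single probes were added after seeing the data. Deviations of same-numbered replicates correlated at -0.016, 0.173, -0.111 and -0.303 (replicates 1 to 4). Each such pair lay at opposite slide positions, where the mean correlation of deviations was -0.126. Whether the numbers pair the arrays therefore could not be decided.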

Additional observations from a re-analysis of the deposited data

Results flagged for a closer look

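In 8 of 140 sets of 4 arrays examined, 1 array stood apart from the other 3 by Dixon's test at the 95% level; chance gives about 1 in 20. Heavy polysome array 1 was the one apart in 5 of them. Its log2 ratio was 0.85 for Cenpb, with the other heavy polysome arrays at -0.31 to -0.14. For Igf2r it was -1.12 against -0.71 to -0.67, for Rpl4 0.46 against -0.56 to -0.45, for Lox 1.30 against 0.39 to 0.43, and for Trp53 -1.43 against -0.42 to -0.28. Heavy polysome array 2 stood apart for Anpep, at -0.68 against -1.11 to -1.05. In total RNA, array 2 stood apart for Bcor at -0.16 against 0.30 to 0.36 and array 4 for Insig2 at 0.51 against 0.11 to 0.15.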

How the results depend on the processing

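The count of 0 genes in either direction held under every alternative except array weights, which called 7 higher (Aph1a, St3gal3, Cenpb, Ppp1r15a, Snrpd3, Fgf10 and Clec2d) and 1 lower (Arpc1a). With the replicate block it was 0 as well, with 506 genes at an unadjusted p under 0.05 against 704, and with the slide position as a block it was 0 with 1140. With slide as a random block it was 0 with 1437. Whether the replicate numbers pair the arrays could not be decided. Without 1 array in turn the count was 0 throughout, with 389 to 1036 genes at that p. The lowest adjusted p apart from array weights was 0.334, within position 3.

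The cause of the shifts that follow was not tested. Array weights gave a median of 0.118 for immediate early genes, 0.035 for the richest minus the poorest starts and -0.026 for Deaf1. Processed signals and the deposited series matrix each gave -0.035 for other TOP genes, 0.027 for all genes, 0.066 for eIF4F and 0.066 for Eif4a1. Median centring without loess gave 0.329 for immediate early genes, 0.173 for other TOP genes, 0.292 for other initiation factors, 0.408 for upstream-frame genes, 0.032 for all genes, 0.244 for eIF4E-sensitive genes, 0.203 for the starts, 0.113 for Eif4a1 and -0.065 for Tap1. Within position 3 the medians were 0.099 for apoptosis regulators, 0.044 for genes with entry sites, 0.113 for immediate early genes, 0.211 for interferon-stimulated genes, -0.017 for eIF4E-sensitive genes, 0.024 for eIF4F and 0.029 for the starts, and single genes turned: Eif4e (-0.075), Eif4g3 (0.094), Trp53 (0.084) and Zfas1 (0.079). Within position 1 they were -0.419 for ribosomal proteins, -0.363 for interferon-stimulated genes, 0.185 for stromal identity, 0.101 for all genes and 0.255 for eIF4E-sensitive genes. Without the 3 arrays of lowest correlation they were 0.118 for immediate early genes, 0.039 for all genes and 0.048 for eIF4E-sensitive genes. Stromal identity was at 0.181 with a filter in both channels of all arrays and 0.111 with scaling between arrays. Other TOP genes were at -0.013 with heavy polysome arrays 2 and 4 as 1 replicate. All genes were at 0.007 with no filter, and Eif4a1 at 0.005 with the mean of all probes. That mean lay nearer 0 than the chosen probe for Rack1 (-0.137), Ipo7 (0.332), Trp53 (-0.143), Pdgfra (-0.072), Bcl2l1 (0.166) and Cebpb (-0.185). For Eif5a (0.809) it lay further from 0.

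With 1 array left out, the medians ran from 0.039 to 0.077 for all genes, 0.083 to 0.179 for non-coding RNAs, 0.012 to 0.138 for stromal identity, 0.073 to 0.241 for eIF4F and -0.034 to 0.044 for other TOP genes. Deaf1 ran from -0.008 without total RNA array 1 to 0.35, and Eif4a1 from -0.076 to 0.021 without total RNA array 4.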
